A study of Mus musculus with 6 samples.

Results

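The transcription of 51 imprinted genes was compared between WT and *Bdh2*-knockout stem cells, locus by locus. They are imprinted genes outside the *H19*-*Igf2* pair and the *Dlk1*-*Dio3* cluster and were picked by symbol from the 54715 genes of the count table. All 51 were listed once in it. Members whose starts were at most 3 Mb apart were joined, which gave 21 loci on 11 chromosomes, and each member was assigned the parental allele it is known to be expressed from, 27 paternal and 24 maternal. For 23 of the 51 (5 of the paternally and 18 of the maternally expressed genes) monoallelic expression is known only for certain tissues or isoforms, as for *Ube3a* in neurons and *Ascl2* in placenta. The counts do not separate the alleles, so they give the summed output of both copies.

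Imprinted genes are transcribed mainly from the copy inherited from the mother or from the copy inherited from the father. Both copies carry the same genes and differ in DNA methylation laid down in the egg or the sperm, which is kept after fertilization at control regions by zinc-finger proteins such as ZFP57, their partner TRIM28 and the maintenance methyltransferase DNMT1. Many imprinted genes regulate fetal and placental growth or act in the brain, and in several loci a long antisense RNA from the paternal chromosome silences neighbouring genes on that chromosome.

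Cells were mouse advanced embryonic stem cells (ASCs), a pluripotent state kept in N2B27 medium with activin A, LIF, BMP4 and CHIR99021. The line came from a 129/sv female crossed with a male that carries the GOF/GFP reporter, and all 6 libraries share this background. RNA of 3 replicates of WT ASCs (C1 to C3) was compared with RNA of 3 replicates of *Bdh2*-/- ASCs (KO1 to KO3), named *Bdh2*-knockout ASCs here, in which CRISPR/Cas9 had removed bases of the coding sequence on both alleles, in a line picked as a single colony. With 1 selected clone, the effect of the deletion and features of that clone cannot be told apart. The labels do not say whether the replicates were separate cultures, so p-values measure the spread between these libraries, which may be technical.

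The libraries held 18927748 to 28333541 counts on genes, and 3 counts were taken as the smallest detectable level. Levels are given as CPM (read counts scaled to a common library size with TMM factors). Values below are in the order of replicates 1 to 3. *Bdh2* had 203, 193 and 209 counts in WT and 164, 136 and 129 counts in *Bdh2*-knockout ASCs (log2 fold change -0.79, standard error (SE) 0.12, adjusted p = 2.46e-04), without overlap between the genotypes. Of 15 primitive endoderm markers 14 were called higher in *Bdh2*-knockout ASCs (21.0% of all tested genes were) and *Hnf4a* lower (log2 fold change -0.47), and their summed level was 374 to 415 CPM in WT and 907 to 1001 CPM in *Bdh2*-knockout ASCs. None of these 15 markers was at 0 in any group. All 12 pluripotency markers were expressed, at 7680.1 to 7829 CPM in WT and 7939 to 8071 CPM in *Bdh2*-knockout ASCs in sum. Of these 12 markers 7 were called higher (58.3%) and 1 lower. Adult hepatocyte transcripts differed between libraries of 1 genotype: the summed level of 11 markers was 425, 258 and 30.1 CPM in WT ASC replicates 1 to 3 and 22.5, 117 and 12.7 CPM in *Bdh2*-knockout ASC replicates 1 to 3, and none was at 0 in all libraries. Trophoblast markers (11 genes, *Prl3d1* and *Tpbpa* at 0 throughout) summed to 161 to 187 CPM in WT and 169.6 to 176 CPM in *Bdh2*-knockout ASCs, fibroblast markers (8 genes, *Lum* at 0 in all knockout libraries) to 35.5 to 41.2 CPM in WT and 29.6 to 35.1 CPM in *Bdh2*-knockout ASCs and neural markers (8 genes, none at 0 throughout) to 79.0 to 90.7 CPM in WT and 92.2 to 94.4 CPM in *Bdh2*-knockout ASCs. Of 8 tested trophoblast markers 1 was called higher and 2 lower, and of 7 tested fibroblast markers 0 higher and 2 lower. Of 7 tested neural markers 3 were called higher and 0 lower. Over all tested genes 20.8% were called lower. In such bulk RNA, fewer cells of a type and less RNA per cell cannot be told apart.

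The promoter sequences were compared first, since imprinted control regions often span a promoter. RefSeq windows of 300 bases (250 before to 50 after a transcription start, GRCm38.p6) were found for 40 of the 51 members. ZFP57 is known to bind the methylated hexamer TGCCGC, and the hexamer, on either strand, was in a window of 14 of the 40 genes (35.0%) against 13.1% of the 27025 genes with a window. It was in 8 of 22 paternally expressed genes (36.4%) and in 6 of 18 maternally expressed genes (33.3%). By direction, 5 of 15 paternally expressed genes that rose held it (33.3%) and 2 of 7 maternally expressed genes that fell (28.6%). The median of the highest CpG count per gene was 17 in the members and 8 in all genes with a window. The hexamer itself holds a CpG, and the shares were not compared at equal CpG content. A match is a description of the letters only, and neither methylation nor binding was measured. The first 3 windows below belong to 3 of these 5 paternally expressed genes and are shown because they hold it, with the hexamer, read on either strand, in capitals.
*Mest*: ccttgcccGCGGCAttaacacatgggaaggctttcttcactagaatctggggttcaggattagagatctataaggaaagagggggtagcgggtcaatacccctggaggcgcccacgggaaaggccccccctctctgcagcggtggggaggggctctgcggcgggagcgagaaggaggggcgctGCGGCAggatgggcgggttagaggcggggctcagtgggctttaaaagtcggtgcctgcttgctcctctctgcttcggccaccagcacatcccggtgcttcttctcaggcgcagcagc
*Snrpn*: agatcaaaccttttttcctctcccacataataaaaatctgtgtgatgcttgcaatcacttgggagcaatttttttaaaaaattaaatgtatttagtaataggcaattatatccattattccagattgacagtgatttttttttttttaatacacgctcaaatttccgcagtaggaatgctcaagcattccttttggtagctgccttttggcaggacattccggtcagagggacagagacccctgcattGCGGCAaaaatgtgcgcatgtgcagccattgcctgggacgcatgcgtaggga
*Plagl1*: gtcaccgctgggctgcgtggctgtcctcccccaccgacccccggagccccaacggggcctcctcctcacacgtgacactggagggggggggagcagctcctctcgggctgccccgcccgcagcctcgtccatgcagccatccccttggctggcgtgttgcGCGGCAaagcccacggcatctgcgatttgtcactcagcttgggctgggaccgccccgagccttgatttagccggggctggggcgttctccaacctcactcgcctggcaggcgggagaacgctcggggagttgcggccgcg
The window of *Mest* (chr6:30737800-30738099, plus strand) held the hexamer 2 times and 17 CpG dinucleotides, that of *Snrpn* (chr7:60005150-60005449, minus strand, shared with *Snurf*) 1 time and 7 CpGs, and that of *Plagl1* (chr10:13090582-13090881, plus strand) 1 time and 26 CpGs. The window of *Peg3* (chr7:6730370-6730669, minus strand) shows a promoter that serves both *Peg3* and *Usp29*, which are transcribed away from each other. Capitals mark the 163 bases between their starts, and the hexamer does not occur in this window.
*Peg3*: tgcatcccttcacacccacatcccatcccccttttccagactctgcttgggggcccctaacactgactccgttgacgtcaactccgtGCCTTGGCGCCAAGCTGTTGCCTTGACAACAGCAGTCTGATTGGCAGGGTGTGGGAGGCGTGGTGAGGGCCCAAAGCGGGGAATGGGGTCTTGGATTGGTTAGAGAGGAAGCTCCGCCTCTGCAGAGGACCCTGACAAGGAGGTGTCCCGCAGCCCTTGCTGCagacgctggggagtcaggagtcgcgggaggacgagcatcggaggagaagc
The last window belongs to *Slc22a18* (chr7:143473539-143473838, plus strand), the member with the largest decrease among those called. It is shown because it differs from the others in CpG content, with 2 CpGs and the hexamer absent.
*Slc22a18*: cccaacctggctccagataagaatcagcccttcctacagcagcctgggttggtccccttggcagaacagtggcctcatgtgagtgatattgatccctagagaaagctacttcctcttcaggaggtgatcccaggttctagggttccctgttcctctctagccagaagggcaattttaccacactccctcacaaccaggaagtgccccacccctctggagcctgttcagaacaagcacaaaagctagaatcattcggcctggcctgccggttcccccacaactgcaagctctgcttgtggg

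Paternally expressed genes were mostly higher in *Bdh2*-knockout ASCs and maternally expressed genes more often lower. Of the 27 paternally expressed genes 25 had enough counts to be tested, and 18 of them rose, 2 fell and 5 did not pass. Of the 24 maternally expressed genes 17 could be tested, and 3 rose, 9 fell and 5 did not pass. Of the 9 that fell 5 lie in 1 locus, the *Kcnq1ot1* domain on chromosome 7. The test was edgeR's quasi-likelihood test over all 16758 tested genes, with a Benjamini-Hochberg adjusted p under 0.05 as threshold. In this comparison 41.7% of all tested genes were called, 21.0% higher and 20.8% lower, so that the 72.0% of tested paternally expressed genes that rose stands beside 21.0% and the 52.9% of maternally expressed genes that fell beside 20.8%. The median log2 fold change (*Bdh2*-knockout over WT) was 0.56 in the 25 paternally expressed and -0.18 in the 17 maternally expressed genes, against -0.01 in all tested genes. Changes of at least 2-fold among the called genes were found in 5 members, all higher (*Peg13*, *Airn*, *Magel2*, *Mest* and *Calcr*), while such increases made up 2.05% and such decreases 3.23% of all tested genes. Counted over tested genes whether called or not, levels were higher in all knockout libraries than in all WT libraries in 18 of 25 paternally expressed genes (26.3% of all tested genes) and lower without overlap in 8 of 17 maternally expressed genes (26.1% of all tested genes, 52.4% in either direction). With library totals in place of TMM factors (the scaling used), the share of higher genes among all calls was 38.0% in place of 50.3%, the median of all tested genes moved to -0.07, and the class medians were 0.50 and -0.24. The genes were listed with earlier results of these data known, and no test of the lists was made.

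Genes imprinted in most tissues were counted separately. Of 21 tested paternally expressed genes of this kind 14 rose and 2 fell, and of 4 maternally expressed ones 3 fell (*Cdkn1c*, *Slc22a18* and *Phlda2*) and 1 rose (*Grb10*), beside 21.0% higher and 20.8% lower of all tested genes. The 3 that fell are neighbours in the *Kcnq1ot1* domain on chromosome 7, and the call of *Phlda2* was lost with DESeq2. Under a score of adult hepatocyte transcripts as a covariate, 16 of the 18 paternal increases and 8 of the 9 maternal decreases were still called. Leaving out WT ASC replicates 1 and 2, which held most of these transcripts, leaves 1 WT library without a spread of its own. The median log2 fold changes were then 0.56 in the paternally and -0.12 in the maternally expressed genes. This last setting was chosen after seeing the data. The part that the primitive endoderm markers have in these differences was not tested.

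**Figure D1:**
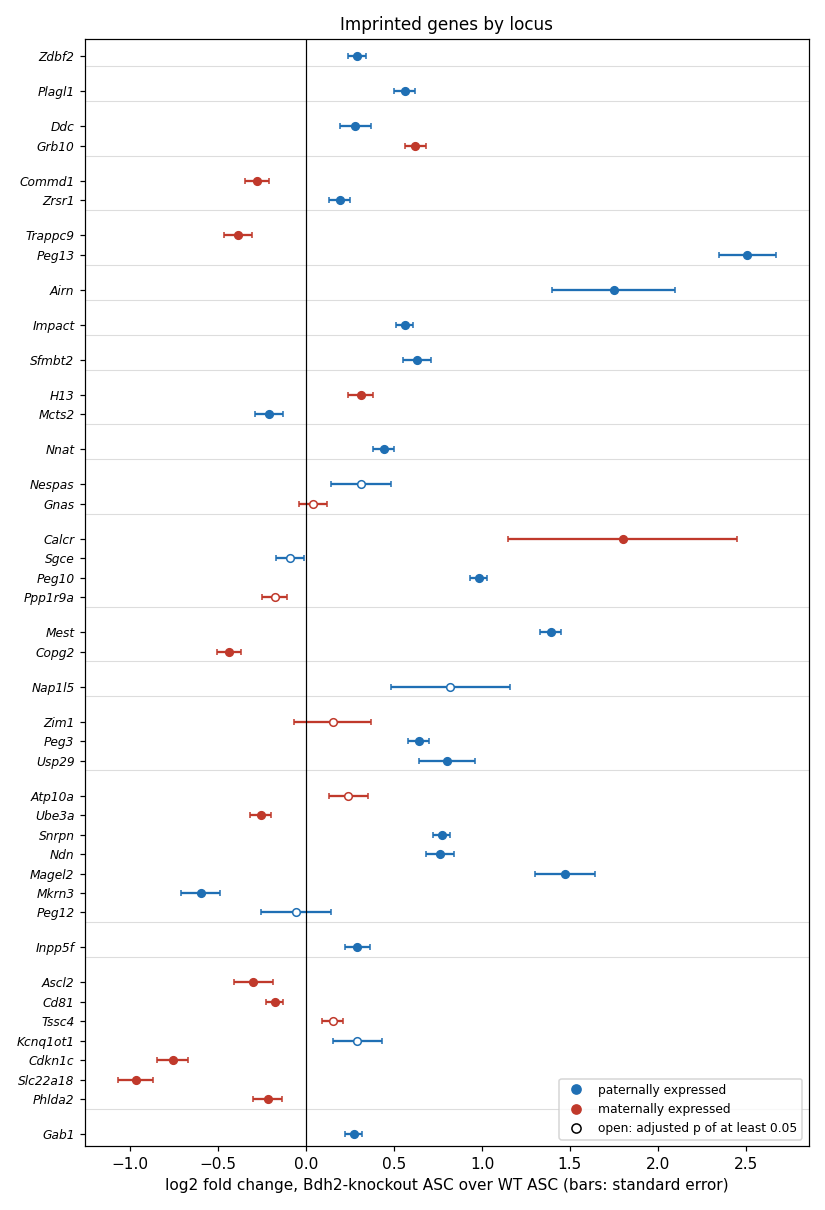
Log2 fold change of the 42 tested imprinted genes (*Bdh2*-knockout ASCs over WT ASCs, bars are standard errors), grouped by locus from top to bottom, blue for paternally and red for maternally expressed genes, with open symbols where the adjusted p was at least 0.05. Of the blue points 21 of 25 lie right of 0 and of the red points 10 of 17 lie left of it.

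The locus of *Mest* on chromosome 6 (30723547 to 30959078 of GRCm38) held 1 gene that rose and 1 that fell. *Mest*, the paternally expressed gene of an alpha/beta hydrolase of embryonic mesoderm, was at 44.8, 52.0 and 52.6 CPM in WT and 126, 133 and 132 CPM in *Bdh2*-knockout ASCs. The lowest knockout library was above the highest WT library, and the log2 fold change was 1.39 (SE 0.06, adjusted p = 1.30e-08). *Copg2*, which encodes a subunit of the COPI coat and is transcribed toward *Mest* from the other side, was at 66.1, 70.6 and 72.1 CPM in WT and 50.8, 46.4 and 56.6 CPM in *Bdh2*-knockout ASCs. All knockout libraries were below all WT libraries, and the log2 fold change was -0.44 (SE 0.07, adjusted p = 2.38e-04). The 3′ ends of both genes overlap, so that exons of *Copg2* cover 23.1% of the exon bases of *Mest*, and the library kit named in the labels does not keep the strand. Reads from this stretch cannot be assigned to either gene with certainty. *Klf14*, a maternally expressed transcription factor gene without introns, had 3 to 14 counts in every library and was not tested.

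At the *Peg10* locus, also on chromosome 6 (3685680 to 5433022), only *Peg10* and *Calcr* passed the test among 4 tested members. *Peg10*, a gene derived from a retrotransposon and needed for placental development, had the highest level per length of all members, 322 in WT and 632 in *Bdh2*-knockout ASCs in TPM (a level scaled by gene length). Its normalized levels were 678, 753 and 749.5 CPM in WT and 1453, 1456 and 1406 CPM in *Bdh2*-knockout ASCs, and the log2 fold change was 0.98 (SE 0.05, adjusted p = 2.65e-08). *Sgce*, the epsilon-sarcoglycan gene, starts next to *Peg10* on the opposite strand and is also paternally expressed. It was at 18.3, 22.1 and 19.6 CPM in WT and 18.4, 18.2 and 20 CPM in *Bdh2*-knockout ASCs, and it did not pass (log2 fold change -0.09, SE 0.08, adjusted p = 0.402). The levels of *Peg10* did not overlap between the genotypes and those of *Sgce* did. *Ppp1r9a*, the neurabin gene, was at 44.6 ± 3.49 CPM in WT (SD, n = 3) and 39.3 ± 3.03 CPM in *Bdh2*-knockout ASCs and did not pass (log2 fold change -0.18, adjusted p = 0.0525), though it passed under 5 of the alternative settings. *Calcr*, the calcitonin receptor gene, rested on 0, 2 and 12 counts in WT and 29, 11 and 19 counts in *Bdh2*-knockout ASCs. It rose (log2 fold change 1.80, SE 0.65, adjusted p = 0.0403), but the value ranged from 0.65 to 3.76 over the alternatives and lost its call with the hepatocyte covariate and without any 1 of 4 libraries (WT ASC replicates 1 and 2, *Bdh2*-knockout ASC replicates 1 and 3). *Asb4* had at most 11 counts in a library and was not tested.

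**Figure D2:**
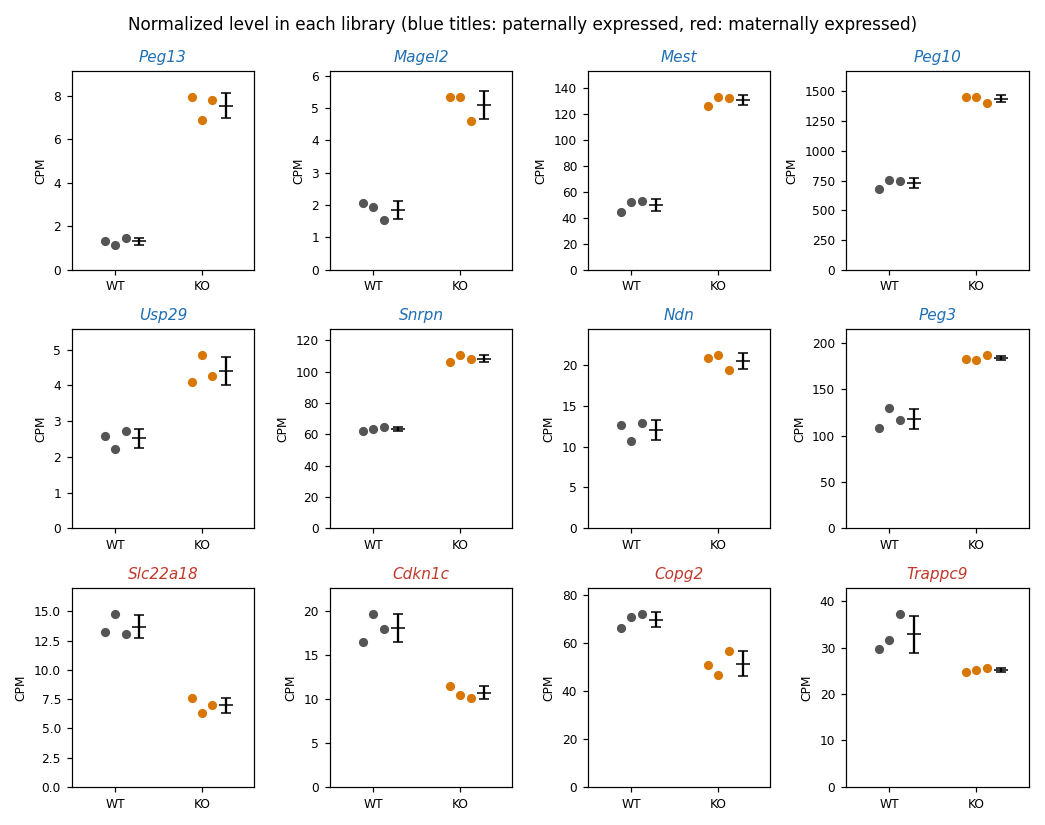
Normalized level in CPM of 12 imprinted genes in each library (dots, WT ASCs grey and *Bdh2*-knockout ASCs orange) with mean and SD beside them, n = 3, each axis starting at 0. The first 8 panels are paternally expressed genes whose knockout libraries all lie above the WT libraries, and the last 4 are maternally expressed genes whose knockout libraries all lie below.

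The genes on both sides of the shared *Peg3* promoter on chromosome 7 (6671269 to 6967219) rose together. *Peg3*, which encodes a large zinc-finger protein, was at 108, 129.6 and 117 CPM in WT and 183, 182 and 187 CPM in *Bdh2*-knockout ASCs, and the log2 fold change was 0.64 (SE 0.06, adjusted p = 5.90e-06). *Usp29*, a gene of a ubiquitin-specific protease, was at 2.58, 2.23 and 2.73 CPM in WT and 4.10, 4.84 and 4.26 CPM in *Bdh2*-knockout ASCs, and the log2 fold change was 0.80 (SE 0.16, adjusted p = 0.00143). Neither gene had overlapping genotypes. The maternally expressed *Zim1*, another zinc-finger gene of the locus, was at 2.52, 3.02 and 1.94 CPM in WT and 3.41, 2.49 and 2.30 CPM in *Bdh2*-knockout ASCs and did not pass (log2 fold change 0.15, adjusted p = 0.623).

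Members of the *Snrpn* locus on chromosome 7 (58656166 to 62464510), the mouse counterpart of the region lost in Prader-Willi and Angelman syndromes, changed in both directions. *Snrpn*, which encodes the spliceosomal protein SmN, was at 62.3, 63.1 and 64.6 CPM in WT and 106, 110.4 and 108 CPM in *Bdh2*-knockout ASCs, and the log2 fold change was 0.77 (SE 0.05, adjusted p = 2.32e-07). Exons of other genes of the same strand (*Snurf* and *Gm38393*) cover 27.3% of its exon bases. *Snurf*, the upstream reading frame of the same transcript, had 0 counts in all 6 libraries, and all of its annotated exon bases lie in exons of *Snrpn* and *Gm38393*, so that its reads could not be assigned to it alone. The zero is therefore no measure of its transcription. *Ndn*, the necdin gene, was at 12.6, 10.7 and 12.9 CPM in WT and 20.9, 21.2 and 19.4 CPM in *Bdh2*-knockout ASCs, and the log2 fold change was 0.76 (SE 0.08, adjusted p = 1.69e-05). Its relative and neighbour *Magel2*, a MAGE gene of endosomal protein recycling, was at 2.06, 1.93 and 1.54 CPM in WT and 5.34, 5.35 and 4.59 CPM in *Bdh2*-knockout ASCs, and the log2 fold change was 1.47 (SE 0.17, adjusted p = 2.44e-05). These genes had no overlap between genotypes. In contrast *Mkrn3*, a makorin ubiquitin ligase gene that lies next to them and is also paternally expressed, was at 9.38, 9.56 and 9.10 CPM in WT and 5.48, 6.09 and 6.97 CPM in *Bdh2*-knockout ASCs. All knockout libraries were below all WT libraries, and the log2 fold change was -0.60 (SE 0.11, adjusted p = 0.0010). *Peg12*, a FRAT family gene beside *Mkrn3*, was at 2.85 ± 0.451 CPM in WT (SD, n = 3) and 2.74 ± 0.603 CPM in *Bdh2*-knockout ASCs (log2 fold change -0.06, adjusted p = 0.834). Of the maternally expressed members, *Ube3a*, the ubiquitin ligase gene of Angelman syndrome, fell and was at 82.7, 90.1 and 75.2 CPM in WT and 71.2, 67.0 and 69.2 CPM in *Bdh2*-knockout ASCs (log2 fold change -0.26, SE 0.06, adjusted p = 0.00637). Exons of transcripts on the other strand, among them *Snhg14*, cover 27.3% of its exon bases, and the call of *Ube3a* was lost with the hepatocyte covariate (log2 fold change -0.21). With WT ASC replicate 3 as the only WT library the log2 fold change of *Ube3a* was -0.12. *Atp10a*, a phospholipid flippase gene, was at 6.98 ± 0.345 CPM in WT (SD, n = 3) and 8.25 ± 0.534 CPM in *Bdh2*-knockout ASCs and did not pass (adjusted p = 0.0806).

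The largest fold change among the 42 tested members was that of *Peg13*, a noncoding RNA of an intron of *Trappc9* on chromosome 15. It had 26, 23 and 37 counts in WT and 219, 188 and 187 counts in *Bdh2*-knockout ASCs. Normalized, this was 1.31 ± 0.164 CPM in WT (SD, n = 3) and 7.55 ± 0.571 CPM in *Bdh2*-knockout ASCs, which is 5.69-fold, and the log2 fold change was 2.51 (SE 0.16, adjusted p = 2.17e-07). Its host *Trappc9*, a gene of the TRAPP tethering complex with maternally biased expression in brain, was at 29.7, 31.6 and 37.3 CPM in WT and 24.8, 25.2 and 25.7 CPM in *Bdh2*-knockout ASCs. All knockout libraries were lower, and the log2 fold change was -0.39 (SE 0.08, adjusted p = 0.00161). *Kcnk9*, a potassium channel gene of the same locus, had 0 counts in each library, which allows up to 3 counts.

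*Airn*, the long noncoding RNA that silences *Igf2r* and other genes on the paternal chromosome 17, was rare. It had 7, 14 and 7 counts in WT and 48, 32 and 36 counts in *Bdh2*-knockout ASCs, at most 1.74 CPM. All knockout libraries were above all WT libraries, and the log2 fold change was 1.75 (SE 0.35, adjusted p = 0.00151), with a range of 1.47 to 2.21 when single libraries were left out. Of its targets among the members, *Slc22a3*, an organic cation transporter gene, had 4, 11 and 11 counts in WT and 2, 1 and 1 counts in *Bdh2*-knockout ASCs, and *Slc22a2* at most 1 count in any library, so neither was tested. Without the filter on low counts *Slc22a3* had a fitted log2 fold change of -2.84 and an adjusted p of 0.00119 from edgeR, while DESeq2 gave it no adjusted p.

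Several imprinted genes are retrogenes that sit inside introns of a host gene, and in both host pairs with calls in each gene (*Mcts2* in *H13*, *Zrsr1* in *Commd1*) the retrogene and its host changed in opposite directions. *Mcts2*, a retrogene copy of a translation factor gene, was at 23.4, 24.1 and 21.2 CPM in WT and 21.3, 17.9 and 19.8 CPM in *Bdh2*-knockout ASCs. Its host *H13*, the signal peptide peptidase gene on chromosome 2, was at 22.1, 25.8 and 21.9 CPM in WT and 29.4, 28.6 and 28.2 CPM in *Bdh2*-knockout ASCs. *H13* rose (log2 fold change 0.31, SE 0.07, adjusted p = 0.00374). *Mcts2* fell (log2 fold change -0.21, SE 0.08, adjusted p = 0.0442), but its genotypes overlapped (21.2 CPM in the lowest WT and 21.3 CPM in the highest knockout library) and the call was lost with DESeq2, limma-voom, the hepatocyte covariate, the replicate block and 4 of the 6 single libraries left out. *Zrsr1*, a splicing factor retrogene in *Commd1* on chromosome 11, was at 23.8, 23.6 and 24.2 CPM in WT and 27.5, 28.1 and 26.1 CPM in *Bdh2*-knockout ASCs. *Commd1*, a gene of copper handling and receptor recycling, was at 19.4, 17.6 and 18.6 CPM in WT and 14.8, 15.2 and 15.9 CPM in *Bdh2*-knockout ASCs. *Zrsr1* rose (log2 fold change 0.19, SE 0.06, adjusted p = 0.0208) and *Commd1* fell (log2 fold change -0.28, SE 0.07, adjusted p = 0.00786), with no overlap in either gene. The call of *Zrsr1* was lost with DESeq2, with the hepatocyte covariate, with library totals in place of TMM and without *Bdh2*-knockout ASC replicate 1 or 2. *Nap1l5*, a nucleosome assembly protein-like retrogene, had 11, 22 and 12 counts in WT and 42, 31 and 25 counts in *Bdh2*-knockout ASCs and did not pass (log2 fold change 0.82, SE 0.34, adjusted p = 0.0672), although it passed without WT ASC replicate 2, with limma-voom and with low counts kept.

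Of the 9 paternally expressed genes that are the only member of their locus 7 rose (21.0% of all tested genes did), *Nap1l5* did not pass and *Rasgrf1* was not tested. *Plagl1*, the transcription factor gene *Zac1* on chromosome 10, was at 68.9, 64.7 and 67.4 CPM in WT and 98.8, 105 and 92.4 CPM in *Bdh2*-knockout ASCs, and the log2 fold change was 0.56 (SE 0.06, adjusted p = 1.01e-05). *Impact*, which encodes an inhibitor of the kinase GCN2, was at 171, 157 and 164 CPM in WT and 238, 244 and 241 CPM in *Bdh2*-knockout ASCs, and the log2 fold change was 0.56 (SE 0.05, adjusted p = 2.65e-06). *Sfmbt2*, a Polycomb-related gene with imprinting in extraembryonic tissue, was at 20.9, 26.5 and 22.0 CPM in WT and 34.6, 35.0 and 38.0 CPM in *Bdh2*-knockout ASCs, and the log2 fold change was 0.63 (SE 0.08, adjusted p = 5.71e-05). In each of the 3 genes the genotypes were apart by more than their spread. *Nnat*, the neuronatin gene in an intron of *Blcap*, rose and was at 21.3, 19.9 and 22.6 CPM in WT and 28.9, 29.2 and 28.8 CPM in *Bdh2*-knockout ASCs (log2 fold change 0.44, SE 0.06, adjusted p = 1.54e-04). Smaller increases were found in the remaining genes. *Zdbf2*, a zinc-finger gene on chromosome 1, was at 214, 212 and 225 CPM in WT and 275, 265 and 260.2 CPM in *Bdh2*-knockout ASCs (log2 fold change 0.29, SE 0.05, adjusted p = 3.73e-04). *Inpp5f*, of which a single isoform is imprinted, was at 20.6, 20.8 and 20.3 CPM in WT and 23.9, 24.7 and 26.6 CPM in *Bdh2*-knockout ASCs (log2 fold change 0.29, SE 0.07, adjusted p = 0.00340). *Gab1*, an adaptor gene imprinted in placenta, was at 238, 242 and 254 CPM in WT and 296, 294 and 292 CPM in *Bdh2*-knockout ASCs (log2 fold change 0.27, SE 0.05, adjusted p = 6.03e-04). In each of these the genotypes did not overlap. *Zdbf2*, *Inpp5f* and *Gab1* kept their calls under the alternatives tried other than the test against a fold change of 1.2. *Rasgrf1*, a Ras exchange factor gene, had at most 9 counts in a library and was not tested.

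The *Kcnq1ot1* domain on chromosome 7 (142966829 to 143503150) held 8 members, of which 7 are maternally expressed. Of the 6 of these that were tested 5 fell and 0 rose, beside 20.8% and 21.0% of all tested genes, with *Phlda2* and *Ascl2* close to the threshold. *Cdkn1c*, the gene of the cell cycle inhibitor p57, was at 16.5, 19.7 and 18.0 CPM in WT and 11.5, 10.5 and 10.1 CPM in *Bdh2*-knockout ASCs, and the log2 fold change was -0.76 (SE 0.09, adjusted p = 2.62e-05). *Slc22a18*, a membrane transporter gene next to it, was at 13.2, 14.8 and 13.1 CPM in WT and 7.62, 6.31 and 7.01 CPM in *Bdh2*-knockout ASCs, and the log2 fold change was -0.97 (SE 0.10, adjusted p = 1.07e-05). In both genes all knockout libraries were below all WT libraries. A transcript on the other strand covers 30.7% of the exon bases of *Cdkn1c*. *Phlda2*, which limits placental growth, was at 20.9, 23.2 and 25.1 CPM in WT and 21.5, 18.8 and 19.4 CPM in *Bdh2*-knockout ASCs (log2 fold change -0.22, SE 0.08, adjusted p = 0.0425), with 1 knockout library above the lowest WT library. *Cd81*, a tetraspanin gene, was at 198, 199 and 202 CPM in WT and 176, 179 and 176 CPM in *Bdh2*-knockout ASCs (log2 fold change -0.18, SE 0.05, adjusted p = 0.00741). *Ascl2*, a trophoblast transcription factor gene, was at 8.81, 9.56 and 11.6 CPM in WT and 8.13, 7.85 and 8.51 CPM in *Bdh2*-knockout ASCs (log2 fold change -0.30, SE 0.11, adjusted p = 0.0493). The calls of *Phlda2* and *Ascl2* were lost with DESeq2 and with the replicate block. That of *Phlda2* was also lost without *Bdh2*-knockout ASC replicate 2 or 3 and without WT ASC replicate 2 or 3. That of *Ascl2* was also lost with median-of-ratios factors, with no filter on low counts and without any single library other than WT ASC replicate 1, with log2 fold changes from -0.38 to -0.17 over the libraries left out. The call of *Cd81* was lost without *Bdh2*-knockout ASC replicate 3. *Tssc4* (a splicing-related gene) was at 28.9 ± 1.99 CPM in WT (SD, n = 3) and 32.1 ± 0.638 CPM in *Bdh2*-knockout ASCs and did not pass (log2 fold change 0.15, adjusted p = 0.0645), except without WT ASC replicate 1, when it was called as higher. The antisense RNA of the domain itself, *Kcnq1ot1*, lies within *Kcnq1* and was at 9.48, 10.8 and 7.08 CPM in WT and 12.2, 10.6 and 10.2 CPM in *Bdh2*-knockout ASCs. Its groups overlapped and it did not pass (log2 fold change 0.29, SE 0.14, adjusted p = 0.104). It passed as higher without WT ASC replicate 2 (log2 fold change 0.43), with the hepatocyte covariate (0.45) and without the filter on low counts. With WT ASC replicate 3 as the only WT library the log2 fold change was 0.64. Without WT ASC replicate 3 the log2 fold change was 0.13. *Kcnq1*, the potassium channel gene, had at most 2 counts in a library.

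*Grb10* on chromosome 11, the gene of an adaptor that inhibits insulin and growth factor receptors, was the only maternally expressed member called as higher under every alternative tried. It was at 47.5, 48.2 and 51.7 CPM in WT and 76.1, 72.1 and 79.0 CPM in *Bdh2*-knockout ASCs, and the log2 fold change was 0.62 (SE 0.06, adjusted p = 3.24e-06). *Grb10* is also known to be transcribed from the paternal allele in neurons. Its neighbour *Ddc*, the DOPA decarboxylase gene with paternal expression in the embryonic heart, was at 9.22, 9.71 and 9.62 CPM in WT and 10.7, 11.5 and 12.6 CPM in *Bdh2*-knockout ASCs and rose (log2 fold change 0.28, SE 0.09, adjusted p = 0.0264), a call lost with DESeq2, with the hepatocyte covariate, with library totals, and when WT ASC replicate 1 or 1 of *Bdh2*-knockout ASC replicates 2 and 3 was left out. At the *Gnas* locus on chromosome 2, *Gnas*, the gene of the stimulatory G protein, was at 22.5 ± 2.05 CPM in WT (SD, n = 3) and 23.2 ± 1.6 CPM in *Bdh2*-knockout ASCs (log2 fold change 0.04, adjusted p = 0.691). Its antisense RNA *Nespas* was at 4.58 ± 1.22 CPM in WT (SD, n = 3) and 5.64 ± 0.206 CPM in *Bdh2*-knockout ASCs (log2 fold change 0.31, adjusted p = 0.155). Neither passed, but without WT ASC replicate 1 *Nespas* was called as higher at a log2 fold change of 0.54. Exons of each cover part of the other (22.0% of the exon bases of *Gnas* and 38.5% of those of *Nespas* lie in exons of the other strand). *Dcn*, the decorin gene, imprinted in placenta, had 15, 5 and 9 counts in WT and 2, 11 and 2 counts in *Bdh2*-knockout ASCs, too few for the test.

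Counts of 2 members of a locus were also compared as a ratio within each library, with no scaling between libraries and with 2 counts added to each gene. Of 14 such pairs, 11 had ratios that did not overlap between the genotypes (mean ± SD, n = 3, below). The share without overlap was not computed over other pairs of genes, and over single genes it was 52.4%. *Airn* to *Slc22a3* is 1 of the 11, with *Slc22a3* at 1 to 2 counts in the knockout libraries, so that its shift depends on the counts added. The log2 ratio of *Mest* to *Copg2* was -0.48 ± 0.06 in WT and 1.35 ± 0.15 in *Bdh2*-knockout ASCs, and that of *Peg10* to *Sgce* 5.18 ± 0.08 in WT and 6.25 ± 0.10 in *Bdh2*-knockout ASCs. That of *Snrpn* to *Ube3a* was -0.38 ± 0.15 in WT and 0.64 ± 0.08 in *Bdh2*-knockout ASCs. *Mest* was thus counted less often than *Copg2* in each WT library and more often in each knockout library. The log2 ratio of *Peg13* to *Trappc9* was -4.55 ± 0.16 in WT and -1.73 ± 0.12 in *Bdh2*-knockout ASCs and that of *Kcnq1ot1* to *Cdkn1c* -1.0 ± 0.30 in WT and 0.05 ± 0.04 in *Bdh2*-knockout ASCs. Lower ratios in the knockout libraries were found for *Mcts2* to *H13* (-0.02 ± 0.09 in WT and -0.55 ± 0.11 in *Bdh2*-knockout ASCs) and for *Ndn* to *Magel2* (2.65 ± 0.31 in WT and 1.99 ± 0.06 in *Bdh2*-knockout ASCs). The log2 ratio of *Peg3* to *Usp29* overlapped between the genotypes, at 5.50 ± 0.26 in WT and 5.37 ± 0.14 in *Bdh2*-knockout ASCs (two-sided exact permutation test, p = 0.6). For the 11 pairs without overlap the same exact permutation test gave p = 0.1, the smallest p that 3 against 3 allow, and 0.127 after Benjamini-Hochberg adjustment over the 14 pairs.

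**Figure D3:**
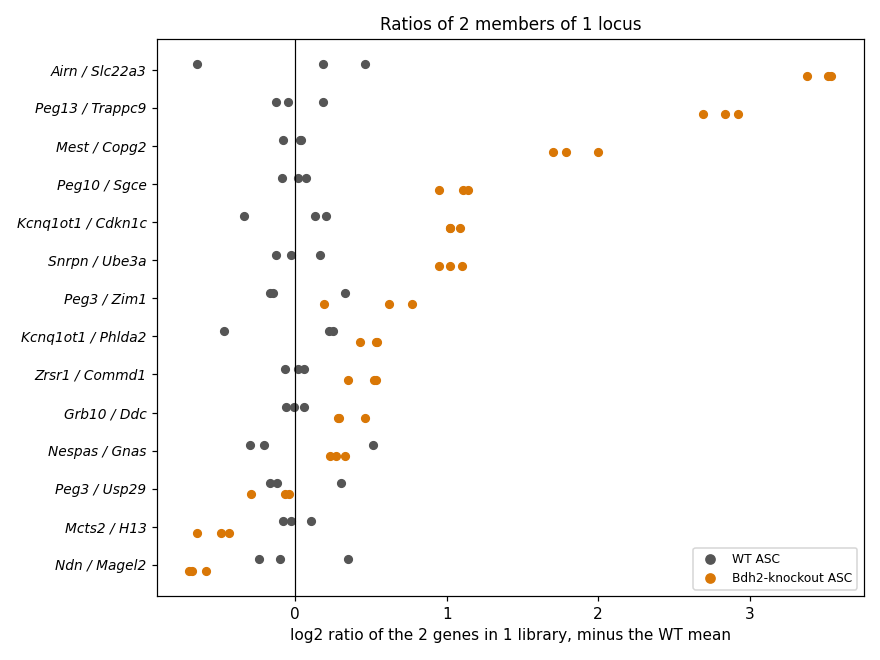
Log2 ratio of the counts of 2 genes of 1 locus in each library, with the mean of the 3 WT ASC libraries set to 0 (WT ASCs grey, *Bdh2*-knockout ASCs orange). The ratio of *Peg13* to *Trappc9* lies 2.81 higher in the mean of the knockout libraries and that of *Ndn* to *Magel2* 0.66 lower (difference -0.66).

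Genes around the members were compared in the same fit. Of 586 such genes within 200 kb of a member 106 were tested, and 12 rose and 19 fell, 29.2% in all against 41.7% of all tested genes, with a median log2 fold change of -0.02. They include genes that are themselves imprinted or overlap members, such as *Igf2r* and *Gm38393*, so they are not an unimprinted comparison set. At the *Mest* locus none of 3 tested neighbours passed (log2 fold changes from -0.13 to 0.01, and 1 of them, *Gm13835*, at an unadjusted p under 0.05). *Igf2r*, the receptor gene that *Airn* silences on the paternal allele, was at 195 and 166 CPM in WT and *Bdh2*-knockout ASCs (log2 fold change -0.24, SE 0.05, adjusted p = 0.00209), and *Herc3*, the host of *Nap1l5*, at 23.9 and 19.7 CPM in WT and *Bdh2*-knockout ASCs (log2 fold change -0.28, SE 0.06, adjusted p = 0.00376). At the *Snrpn* locus, *Gm38393*, whose exons overlap *Snrpn*, was at 47.1 and 70.3 CPM in WT and *Bdh2*-knockout ASCs (log2 fold change 0.58, SE 0.07, adjusted p = 4.14e-05) and *Snhg14*, a noncoding RNA that overlaps *Ube3a*, at 74.6 and 94.1 CPM in WT and *Bdh2*-knockout ASCs (log2 fold change 0.34, SE 0.07, adjusted p = 0.00158). *Igf2r*, *Herc3* and *Snhg14* were chosen after their values were seen. Among neighbours with larger changes, *Id1*, an inhibitor of differentiation near *H13*, was at 80.8 and 135 CPM in WT and *Bdh2*-knockout ASCs (log2 fold change 0.73, SE 0.05, adjusted p = 5.53e-07), *Ctsh*, a cathepsin gene near *Rasgrf1*, at 2.06 and 4.87 CPM in WT and *Bdh2*-knockout ASCs (log2 fold change 1.25, SE 0.19, adjusted p = 1.68e-04) and *Aurkc*, an aurora kinase gene near *Usp29*, at 1.03 and 0.276 CPM in WT and *Bdh2*-knockout ASCs (log2 fold change -1.89, SE 0.38, adjusted p = 0.00167). The other neighbours with called changes of at least 0.5 were *Gm40457* (1.13), *Gm20342* (-0.56), *AL589878.1* (-0.98), *Gm13261* (-0.95), *Gm44250* (-0.99), *Pon3* (-0.88) and *Tspan32os* (-1.21), of which *Gm20342*, *AL589878.1*, *Gm44250* and *Pon3* lost their calls with the hepatocyte covariate.

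**Figure D4:**
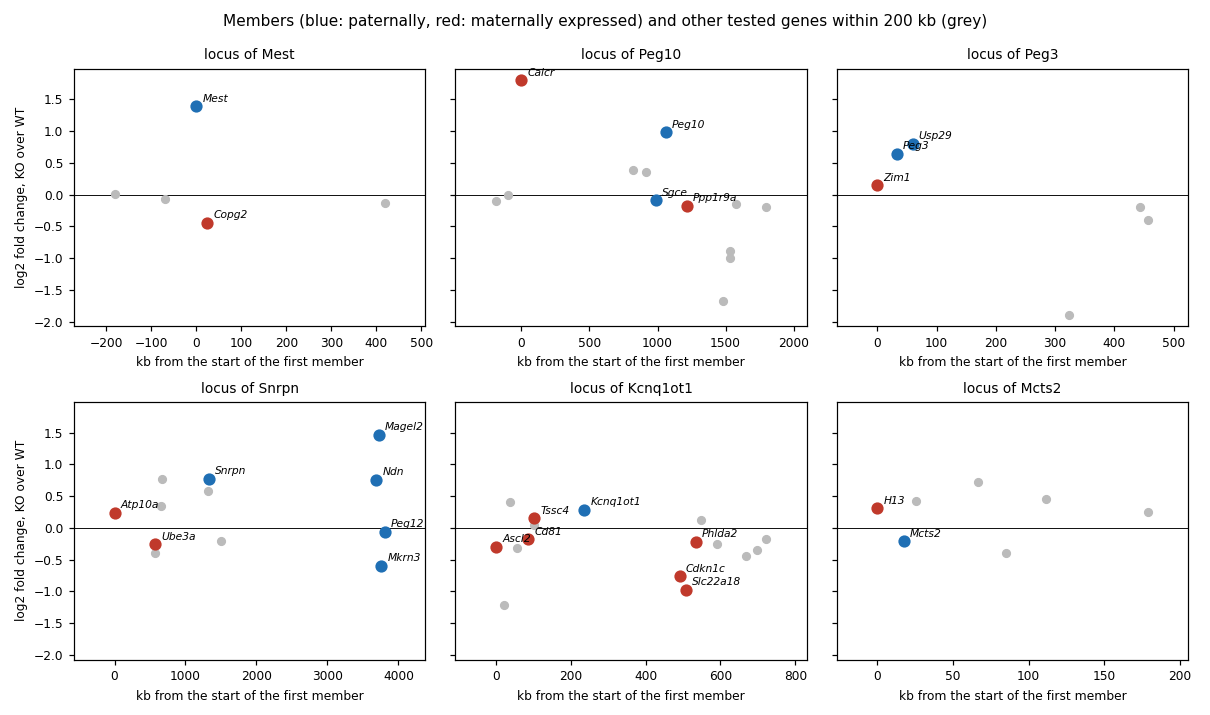
Log2 fold change of members (blue paternally, red maternally expressed) and of other tested genes within 200 kb (grey) against the distance in kb from the start of the first member, for 6 loci. At the *Mest* locus the 3 grey points lie between -0.13 and 0.01 while *Mest* is at 1.39 and *Copg2* at -0.44.

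The 24 listed imprint-control factors set, keep, remove or read DNA methylation or act on chromatin (*Ctcf*, *Eed*, *Ezh2*, *Smchd1* and *Atrx* among the latter). All were tested. Of them 11 rose (45.8%, beside 21.0% of all tested genes), *Ctcf* and *Eed* included, and 1 fell (4.17%, beside 20.8%). The median log2 fold change was 0.12. *Dnmt3l*, the cofactor that directs methylation in germ cells, was at 453, 449.8 and 482 CPM in WT and 858, 824 and 850.5 CPM in *Bdh2*-knockout ASCs (log2 fold change 0.87, SE 0.05, adjusted p = 3.84e-08). *Dnmt3b*, a de novo methyltransferase gene, was at 243, 243 and 270.0 CPM in WT and 369, 396 and 370.2 CPM in *Bdh2*-knockout ASCs (log2 fold change 0.59, SE 0.06, adjusted p = 4.43e-06). *Trim28*, the corepressor that ZFP57 recruits to imprinted regions, was at 1275, 1225 and 1429 CPM in WT and 1772, 1931 and 1836 CPM in *Bdh2*-knockout ASCs (log2 fold change 0.50, SE 0.06, adjusted p = 2.52e-05). In these genes all knockout libraries were higher than all WT libraries. *Zfp57* itself (log2 fold change 0.13, SE 0.05, adjusted p = 0.0588), *Dnmt1* (log2 fold change 0.11, SE 0.05, adjusted p = 0.127) and *Zfp445* (log2 fold change -0.03, SE 0.05, adjusted p = 0.624) did not pass. The levels of *Zfp57* did not overlap, and it was called as higher with DESeq2, with the hepatocyte covariate, with low counts kept and without *Bdh2*-knockout ASC replicate 1. *Dnmt1* was called as higher without WT ASC replicate 3. *Dnmt3a* did not pass either (log2 fold change 0.01, SE 0.05, adjusted p = 0.913). By RT-qPCR the study reported lower *Dnmt3a*, *Dnmt3b* and *Dnmt3l* in *Bdh2*-knockout ASCs, opposite in direction to *Dnmt3b* and *Dnmt3l* here. It also reported less DNMT1, DNMT3A and DNMT3B protein, with DNMT3L protein comparable. The cause of this difference was not tested. The 1 lower gene was *Kdm1b*, a demethylase gene of oocytes, at a log2 fold change of -0.18, and this call was lost under 14 of the 16 alternatives. *Zfp57*, *Dnmt1*, *Dnmt3a*, *Zfp445* and *Kdm1b* were chosen after their values were seen.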

How the data were processed

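RNA was sequenced from 3 WT and 3 *Bdh2*-knockout ASC libraries prepared with a kit that does not keep the strand. The authors aligned reads with Hisat2 (v2.0.5, per the submitters' processing notes), counted them with FeatureCounts and deposited raw read counts per gene for 54715 Ensembl genes. The strand setting, annotation release and treatment of multi-mapped reads at counting are not given in the sources used here, so reads of overlapping genes cannot be told apart. Positions and gene lengths are those of the deposited table (GRCm38), and exon overlaps came from GENCODE M21, which held 99.4% of the gene IDs.

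Genes with low counts were removed by filterByExpr, which left 16758 genes. Fold changes and p-values came from edgeR (4.0.16) with TMM factors and the quasi-likelihood test, Benjamini-Hochberg adjusted over all tested genes. Standard errors were the fold change divided by the square root of F. CPM used TMM-scaled library sizes and TPM the deposited gene lengths. Depth was 18927748 to 28333541 counts, and floors of 3 counts cover counting error only. On simulated data with 200 changed genes, 181 were recovered with 22 false calls. The simulation changed far fewer genes than were called here, and none by as little as the smaller member changes. Recovery of such small changes is therefore unknown. DESeq2 (1.42.0), limma-voom (limma 3.58.1), other factors, filters, a hepatocyte score, a test against a fold change of 1.2, a replicate block and single libraries left out were tried. Ratios of pairs were compared by two-sided exact permutation tests. R was 4.3.3, SciPy 1.17.1.

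The members and lists were chosen with earlier results of these data known. All members are accounted for, with every library's value for those called. Neighbours and control factors were named where called with a log2 change of at least 0.5. Replicate numbers only name libraries, since neither the labels nor the correlations pair them.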

Additional observations from a re-analysis of the deposited data

How the results depend on the processing

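Directions of the 32 called members held under every alternative, and 18 of them were called under every alternative in which they were tested. Under the test against a fold change of 1.2, 1185 genes rose and 1272 fell, with 4 members lower (1 paternally and 3 maternally expressed), 1 maternally expressed member higher, 5 control factors higher and 0 lower, and 7 neighbours higher and 5 lower. Paternally expressed members that fell numbered 1 in place of 2 (*Mkrn3* without *Mcts2*) under DESeq2, limma-voom, the hepatocyte covariate and the replicate block, 1 to 2 with single libraries left out, and 1 without WT ASC replicates 1 and 2, a setting in which 2026 of all genes fell. Control factors that fell numbered 0 in place of 1 under DESeq2, limma-voom, median-of-ratios factors, the hepatocyte covariate, no filter and the replicate block, 0 with each single library left out, 4 with library totals and 3 at a mean count of at least 50. Neighbours that fell numbered 31 with library totals. The cause was not tested.

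Some uncalled values changed sign. *Gnas* was at -0.08 with the hepatocyte covariate, -0.01 with library totals, -0.10 without WT ASC replicates 1 and 2, and -0.00 to 0.13 with single libraries left out. *Zim1* ranged from -0.04 to 0.31 and *Peg12* from -0.25 to 0.08 with single libraries left out, and *Peg12* was at 0.03 with the hepatocyte covariate. The difference between the genotypes in the log2 ratio of *Peg3* to *Usp29* (-0.14, *Bdh2*-knockout minus WT) ranged from -0.22 to 0.01 with single libraries left out, reaching 0.01 without WT ASC replicate 2.

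With the replicate number as a block, 3235 genes rose and 3217 fell, and 18 of 18 paternal increases and 7 of 9 maternal decreases were kept (*Ascl2* and *Phlda2* lost). Same-numbered libraries had correlated deviations of -0.15, 0.10 and 0.24, and not every library correlated best with its own number. The filter on low counts left 9 members untested.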
